A study of Homo sapiens with 6 samples.

Results

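ENO1 peaks that lay in or beside protein-coding genes of HepG2 cells were described region by region. HepG2 is an established human liver cancer line. CUT&Tag was used, in which an antibody draws a transposase to its target in intact cells so that the DNA around it is cut and tagged for sequencing. Antibodies against ENO1, against histone H4 lactylated at lysine 12 (H4K12la) and against HDAC1 gave 2 libraries each, ENO1 replicates 1 and 2, HDAC1 replicates 1 and 2 and H4K12la replicates 1 and 2, with no treatment or mutant named in the labels. Peaks of all 6 lists that shared at least 1 bp were merged into 13626 regions, of which 1984 held an ENO1 peak. The regions described were chosen by peak presence: an ENO1 peak in at least 1 list, and a position in a protein-coding gene or within 10 kb of it. Of the 427 that met both conditions, 69 with a peak in all 6 lists and 29 others with a peak in both ENO1 and both HDAC1 lists were left out. This left 329 regions, 16.6% of all regions with an ENO1 peak (Wilson 95% interval 15.0 to 18.3).

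Enolase 1 is an enzyme of glycolysis that makes phosphoenolpyruvate in the cytosol, and a shorter protein translated from the same mRNA, MBP-1, is known to bind the MYC promoter. HDAC1 removes acyl groups from histones as part of the SIN3, NuRD and CoREST complexes. Lysine lactylation is a histone mark that depends on lactate, the end product of fermentative glycolysis. The series was set up to relate ENO1 and HDAC1 to this mark and to transcription.

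The libraries are known here only by their peak lists, so sequencing depth is unknown, and where a list has no peak there may still be signal too weak to be called. The ENO1 lists held 1592 and 1189 peaks on the 24 chromosomes, the HDAC1 lists 5727 and 4567, and the H4K12la lists 5459 and 7568. Fold enrichment is the authors' own value for a peak, its height over the background that the peak caller used, and is compared only within a list. Whether that background came from the same library or from a control is not known here. The labels do not say whether replicates came from separate cultures, so differences between them may be technical. No control library was analysed here. With 2 libraries against 2, an exact permutation test cannot give a p below 0.333, and the regions were chosen by the lists themselves, so all values below are descriptions without a test. Intervals cover counting error only, and regions of 1 library are not replicates.

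The sequences that bear most directly on genes are the promoters that ENO1 peaks reached. Of the 329 regions, few touched a promoter window, from 250 bases before to 50 bases after an annotated start. The promoters of the 7 protein-coding genes with no near-identical copy and at least 20 bases inside an ENO1 peak are shown, 5′ to 3′ on the strand of the gene, from RefSeq on GRCh38.p14, with the bases inside the ENO1 peak in capitals. TMEM87B, a gene for a Golgi membrane protein, has its window at chr2:112055019-112055318 on the + strand. GALNT3, whose product starts O-linked glycosylation of secreted proteins such as FGF23, has it at chr2:165794198-165794497 on the - strand. IQSEC3, an exchange factor for ARF GTPases at synapses, has it at chr12:77126-77425 on the + strand. KAT6B, a histone acetyltransferase gene, has it at chr10:74826350-74826649 on the + strand. CARS2, the mitochondrial cysteinyl-tRNA synthetase gene, has the shown window, 1 of 2 in the table, at chr13:110706466-110706765 on the - strand. PPP1R15B, a gene for a regulatory subunit of the phosphatase that acts on eIF2α, has it at chr1:204411768-204412067 on the - strand. PDE1B, a phosphodiesterase gene, has it at chr12:54549830-54550129 on the + strand. An annotated start can lie inside a gene: IQSEC3 begins at chr12:66767 and CARS2 at chr13:110713522, outside the windows shown. The starts used for KAT6B, PDE1B and GALNT3 also lie inside the annotated genes, nearer to where these begin.
TMEM87B: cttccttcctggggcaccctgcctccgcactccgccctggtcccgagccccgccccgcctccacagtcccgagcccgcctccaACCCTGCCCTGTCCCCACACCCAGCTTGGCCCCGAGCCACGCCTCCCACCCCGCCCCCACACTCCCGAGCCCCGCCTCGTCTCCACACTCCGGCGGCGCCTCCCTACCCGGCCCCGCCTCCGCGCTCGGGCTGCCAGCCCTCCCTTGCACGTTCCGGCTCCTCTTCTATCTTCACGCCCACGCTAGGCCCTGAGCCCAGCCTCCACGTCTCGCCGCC
GALNT3: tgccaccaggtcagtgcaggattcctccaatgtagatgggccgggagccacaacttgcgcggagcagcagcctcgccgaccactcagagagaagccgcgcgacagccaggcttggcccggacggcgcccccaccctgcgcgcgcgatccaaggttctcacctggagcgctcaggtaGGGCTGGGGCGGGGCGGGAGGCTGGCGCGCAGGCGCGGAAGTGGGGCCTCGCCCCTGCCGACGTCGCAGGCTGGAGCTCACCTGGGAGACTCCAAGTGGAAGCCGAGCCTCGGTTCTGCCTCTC
IQSEC3: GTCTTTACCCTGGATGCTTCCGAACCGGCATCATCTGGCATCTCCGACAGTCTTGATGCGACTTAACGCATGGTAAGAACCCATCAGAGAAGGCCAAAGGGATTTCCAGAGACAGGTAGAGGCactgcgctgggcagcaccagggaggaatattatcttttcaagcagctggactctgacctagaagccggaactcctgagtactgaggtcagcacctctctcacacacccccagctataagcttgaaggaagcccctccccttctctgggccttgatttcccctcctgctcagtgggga
KAT6B: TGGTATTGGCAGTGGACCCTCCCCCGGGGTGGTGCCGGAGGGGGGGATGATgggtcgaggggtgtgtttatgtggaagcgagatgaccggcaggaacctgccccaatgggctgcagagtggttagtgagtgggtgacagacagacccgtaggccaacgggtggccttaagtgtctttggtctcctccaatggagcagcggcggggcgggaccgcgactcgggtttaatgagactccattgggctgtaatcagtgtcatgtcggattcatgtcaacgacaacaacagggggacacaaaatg
CARS2: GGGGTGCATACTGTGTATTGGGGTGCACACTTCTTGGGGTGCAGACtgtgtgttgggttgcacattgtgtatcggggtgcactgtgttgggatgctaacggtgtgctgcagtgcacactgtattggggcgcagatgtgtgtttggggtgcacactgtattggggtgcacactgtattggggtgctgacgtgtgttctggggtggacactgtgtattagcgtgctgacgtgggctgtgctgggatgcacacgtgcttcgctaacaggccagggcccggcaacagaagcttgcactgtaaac
PPP1R15B: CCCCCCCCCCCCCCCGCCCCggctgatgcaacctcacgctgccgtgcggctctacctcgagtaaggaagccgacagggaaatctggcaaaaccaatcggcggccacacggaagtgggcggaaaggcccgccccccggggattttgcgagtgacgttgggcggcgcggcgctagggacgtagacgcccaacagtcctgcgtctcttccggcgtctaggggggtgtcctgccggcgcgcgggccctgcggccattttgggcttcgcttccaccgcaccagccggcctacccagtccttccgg
PDE1B: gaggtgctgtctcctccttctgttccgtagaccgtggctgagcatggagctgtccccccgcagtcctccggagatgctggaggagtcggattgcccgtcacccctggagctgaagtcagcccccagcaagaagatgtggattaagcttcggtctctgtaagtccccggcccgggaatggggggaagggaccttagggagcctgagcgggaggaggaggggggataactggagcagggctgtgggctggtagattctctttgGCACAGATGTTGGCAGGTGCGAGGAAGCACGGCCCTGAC

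The ENO1 peak covered 217 of the bases of the TMEM87B window, and its summit lay 160 bases before the start. ENO1 was 4.85-fold enriched there in replicate 1 and had no peak in replicate 2. HDAC1 reached 5.95-fold and 6.20-fold and H4K12la 3.27-fold and 3.13-fold in the same region, so that only the second ENO1 list lacked a peak. At GALNT3, ENO1 replicate 1 was 4.50-fold enriched with 124 bases of the window inside the peak, and the other 5 lists had no peak. IQSEC3 likewise held an ENO1 peak of replicate 1 alone, at 4.09-fold with 123 bases. The KAT6B region had 4.78-fold in ENO1 replicate 1, 6.53-fold and 8.94-fold in HDAC1, and 4.52-fold in H4K12la replicate 2. Its ENO1 summit lay 236 bases before the start, and 51 bases of the window were inside the peak.

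CARS2 and PPP1R15B were reached by ENO1 replicate 2 alone of the ENO1 lists. At CARS2, ENO1 was 6.61-fold enriched, HDAC1 6.21-fold and 4.79-fold, and H4K12la 5.18-fold and 5.51-fold. At PPP1R15B, ENO1 had 5.14-fold, HDAC1 4.00-fold and 5.32-fold, and H4K12la 5.41-fold and 5.82-fold. Neither pair of HDAC1 or H4K12la lists disagreed on the presence of a peak at these genes. The shown CARS2 window carries a short repeated unit: its most frequent string of 8 bases occurs 6 times, which 4.05% of the 22175 protein-coding promoter windows match or exceed. In PPP1R15B such a string occurs 8 times, matched by 1.78% of windows, and in TMEM87B 4 times, matched by 10.2%. In KAT6B and IQSEC3 no string of 8 bases recurs, and in GALNT3 and PDE1B the highest count is 2, the median of all windows.

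GC content was 74.7% in TMEM87B, 70.0% in GALNT3 and 69.7% in PPP1R15B, against a median of 62.3% over all protein-coding promoter windows. It was 62.0% in PDE1B, 58.7% in KAT6B, 56.0% in the shown CARS2 window and 54.3% in IQSEC3. Searched on both strands, GGGCGG, a core of the GC box, was present in TMEM87B, GALNT3, KAT6B and PPP1R15B, and 56.3% of all protein-coding windows hold it. The other CARS2 window, with no base inside the ENO1 peak, also holds it and has a GC content of 74.7%. TATAAA was in none of the 7 and in 9.47% of all windows. A match or its absence says only which letters stand in the window.

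**Figure D1:**
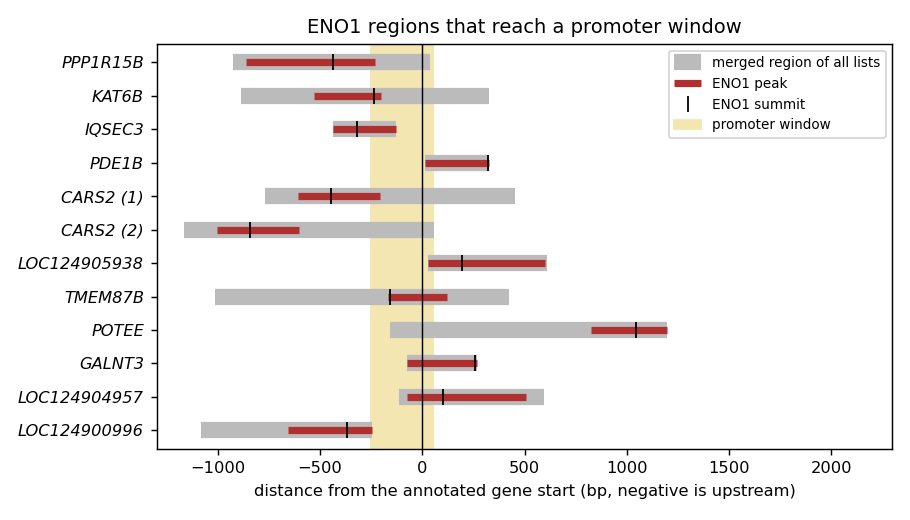
Distance in bp of merged regions (grey), ENO1 peaks (red) and ENO1 summits (black ticks) from annotated gene starts. The 12 promoter windows found to be touched by the regions are shown, with chromosome 8 and genes without a window left out. The yellow band is the window. The TMEM87B peak spans the start with its summit 160 bp before it, while the POTEE peak lies wholly past its window and the CARS2 region reaches 2 windows.

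The remaining windows are described only in brief. PDE1B had 39 bases inside an ENO1 peak of 4.90-fold in replicate 1 and no other peak. The window of LOC124904957, a lncRNA gene inside PCMTD2, had 124 bases inside an ENO1 peak of 4.97-fold in replicate 1, with HDAC1 at 4.41-fold and 4.20-fold and H4K12la replicate 2 at 4.57-fold. LOC124905938, whose promoter has a near-identical copy, had 23 bases inside a replicate 2 peak of 3.53-fold. At POTEE, an ankyrin-repeat gene with many relatives, the region touched the window but no base of it lay inside the ENO1 peak.

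A further region carries microRNA genes. It lies in DNAJC5 (chr20:63919467-63920268), the gene of the synaptic vesicle chaperone cysteine string protein. It overlaps MIR941-1, MIR941-2, MIR941-3, MIR941-4 and MIR941-5, copies that stand in a row. For MIR941-2 only the mature sequence was listed here, without its hairpin. All copies give the same mature sequence, hsa-miR-941, shown with its seed (bases 2 to 8) in capitals. The 4 hairpins listed have 2 distinct sequences, of which that of MIR941-3 is shown.
hsa-miR-941: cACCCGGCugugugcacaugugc
MIR941-3: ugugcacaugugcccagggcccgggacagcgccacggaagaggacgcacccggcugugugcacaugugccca

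ENO1 replicate 1 was 4.35-fold enriched over the DNAJC5 region, in a peak of 800 bp, and ENO1 replicate 2 had no peak. HDAC1 had 4.54-fold and 3.42-fold, and neither H4K12la list had a peak. Reads from near-identical tandem copies may be shared between them.

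The ENO1 lists seldom shared a region here, which depends on the rule and on list length. A peak in both ENO1 lists was present in 21 regions (6.38%, 4.21 to 9.56), in replicate 1 alone in 248 (75.4%, 70.4 to 79.7) and in replicate 2 alone in 60 (18.2%, 14.4 to 22.8). The first count was 48 of 249 regions with equal list lengths, and 10 without HDAC1 replicate 2, since more regions are then excluded. The rule lowers the count for both lists, since all 98 regions it left out had peaks in both ENO1 lists. Under the same exclusions, ENO1 regions over 10 kb from genes had both lists in 107 of 1015 cases (10.5%, 8.80 to 12.6). The lists also differed in how often they came near genes at all. Of the regions with an ENO1 replicate 1 peak, 367 of 1568 (23.4%) were in or within 10 kb of a protein-coding gene, against 179 of 1184 (15.1%) of those with a replicate 2 peak.

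Regions found in a single ENO1 list were seldom near a peak of the other list. Only 9 of 308 (2.92%) had an ENO1 peak of the other replicate within 5 kb, and the median distance to it was 885 kb. The pairs that came this close lay in a few genes. In ZNF236, a zinc finger gene, replicate 1 had a peak at chr18:76895634-76895955 (4.44-fold) and replicate 2 had one at chr18:76896293-76897345 (4.09-fold), with 0.338 kb from the second region to the other list's peak. CDH4, the gene of R-cadherin, had a replicate 2 peak at chr20:61273645-61273998 (3.65-fold) and a replicate 1 peak at chr20:61274496-61274898 (3.75-fold), 0.498 kb apart. In PTPRN2 and GRM4 a single-list region likewise lay 1.41 kb and 0.574 kb from a peak of the other ENO1 list.

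**Figure D2:**
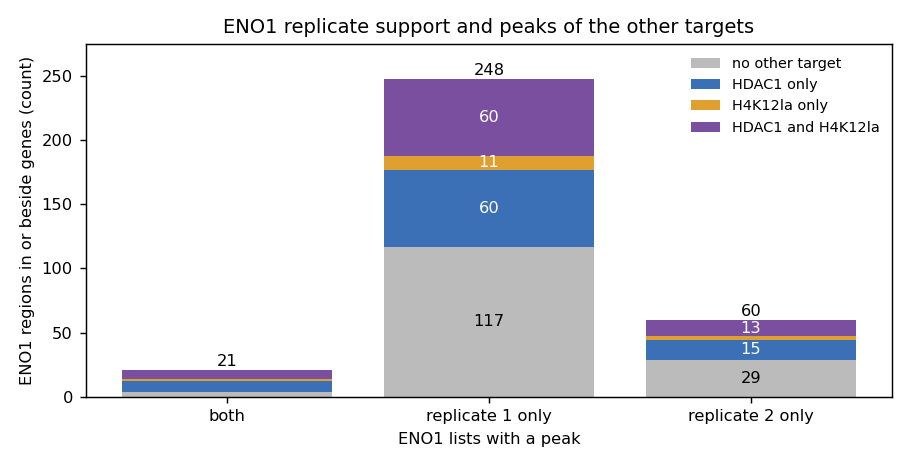
Number of ENO1 regions in or beside genes by the ENO1 lists that hold a peak (columns) and by the other targets with a peak in at least 1 list (colours). The replicate 1 column holds 248 regions, 117 of them with no peak of another target, and the column for both lists holds 21.

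Among the 21 regions with peaks in both ENO1 lists, the ENO1 enrichment ranged from 1.99-fold to 5.74-fold in replicate 1 and from 1.79-fold to 6.98-fold in replicate 2. By the lower of its 2 folds, the highest was PJA2 (chr5:109341761-109342801), the gene of a RING ubiquitin ligase, with 5.66-fold and 6.98-fold in ENO1 replicates 1 and 2. HDAC1 replicate 1 had 5.65-fold there, H4K12la replicate 2 had 3.79-fold, and the second HDAC1 and first H4K12la lists had no peak. PTPRN2 (chr7:158314917-158315425), the gene of a phosphatase-like protein of dense-core vesicles, followed with 5.36-fold and 5.86-fold for ENO1, and only HDAC1 replicate 1 of the other lists had a peak, at 4.06-fold. TSNARE1 (chr8:142390382-142391648), which encodes a t-SNARE domain protein, had 5.31-fold and 5.34-fold, with 4.36-fold in HDAC1 replicate 1 and 4.25-fold in H4K12la replicate 2. SELP (chr1:169620787-169621519), the gene of the adhesion molecule P-selectin, had 5.26-fold and 5.14-fold for ENO1 and 4.38-fold in HDAC1 replicate 2.

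Only 4 of these 21 regions had ENO1 peaks in both lists and no peak of another target. CACNA1E (chr1:181728607-181729131), the gene of an R-type calcium channel subunit, had 4.65-fold and 5.19-fold. PCBP3 (chr21:45924317-45924815), which encodes a poly(C) binding protein, had 5.74-fold and 4.54-fold. ARHGEF10L (chr1:17675493-17675976), the gene of a guanine nucleotide exchange factor, had 4.25-fold and 4.14-fold, and OR2T6 (chr1:248383879-248384431), an olfactory receptor gene, had 5.34-fold and 4.06-fold. These are the regions in or beside genes where both ENO1 libraries had a peak and none of the other 4 lists did. The support was thin at OR2T6, whose replicate 2 peak had a -log10 q of 2.09, the lowest value in that list.

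The remaining regions with both ENO1 lists held 1 to 3 peaks of the other targets. COL22A1, a collagen gene, had 5.53-fold and 4.46-fold for ENO1 with 5.39-fold in HDAC1 replicate 2. KIAA0825 had 4.42-fold and 5.41-fold, with 4.87-fold in HDAC1 replicate 1 and 4.25-fold in H4K12la replicate 2.

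TBC1D22A, a gene of the TBC domain family that includes Rab regulators, was the only one of the 21 with both H4K12la lists. It had 5.18-fold and 4.11-fold for ENO1, 3.94-fold in HDAC1 replicate 2, and 3.79-fold and 3.67-fold for H4K12la. GRM4, a metabotropic glutamate receptor gene, was lower, with 3.02-fold and 3.83-fold for ENO1. The region at TAF11L7, with 4.31-fold and 5.23-fold, and those at LOC124902048 and LOC101929627, from 3.10-fold to 3.47-fold, lie among runs of similar neighbouring genes, where reads may be shared.

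Of the 21 regions, 4 lay in TTC34, a gene of the tetratricopeptide repeat family, and had the lowest enrichment. Their ENO1 values were 2.80-fold and 2.27-fold, 2.12-fold and 1.89-fold, 2.16-fold and 1.79-fold, and 1.99-fold and 1.86-fold in replicates 1 and 2. The -log10 q at the strongest of them was nevertheless 25.9 and 23.6, above all others among the 21. All 4 also had a peak in HDAC1 replicate 1, from 1.71-fold to 2.58-fold, and none in HDAC1 replicate 2. TTC34 held 6 regions in all, the most of any gene.

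**Figure D3:**
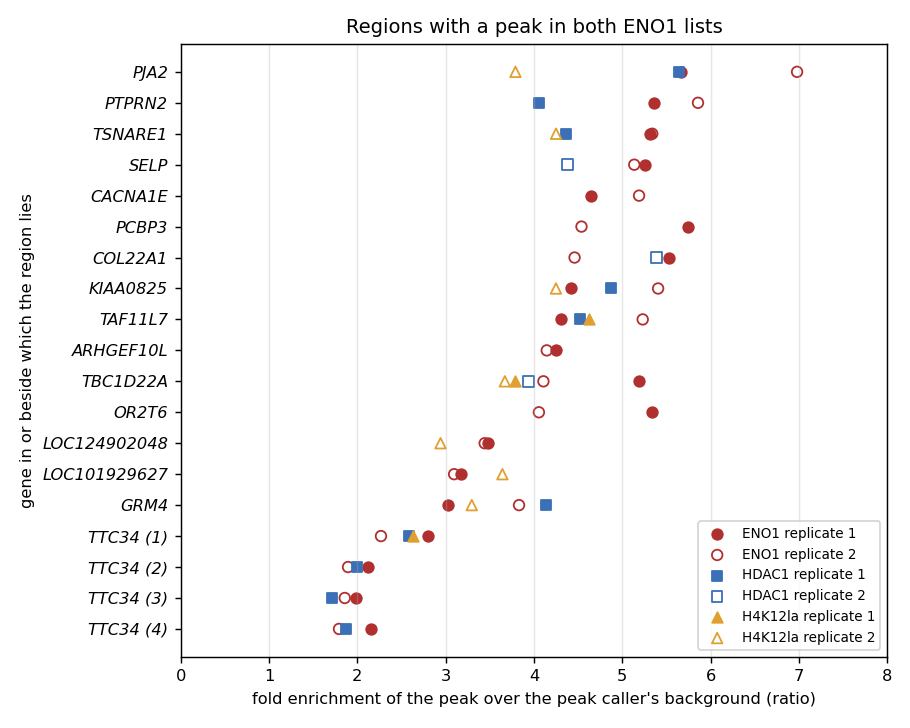
Fold enrichment over the peak caller's background (ratio) for 19 of the 21 regions with a peak in both ENO1 lists, by gene; filled symbols are replicate 1, open ones replicate 2, and a missing symbol means no peak. PJA2 leads with 5.66 and 6.98 for ENO1, and the 4 TTC34 regions lie lowest, between 1.79 and 2.80.

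The highest ENO1 values among the 329 regions were in regions with a peak of replicate 1 and none of replicate 2, which the exclusions favour: of the 98 regions left out, all with both ENO1 lists, 28 reached 9-fold in replicate 1 and 21 in replicate 2. Among the 329, 10 regions reached 9-fold or more in replicate 1, none of them with a replicate 2 ENO1 peak, and none did in replicate 2. MAMDC2 (chr9:70038183-70038520), the gene of a MAM domain protein, led with 18.4-fold for ENO1 in a region 5.06 kb outside the gene, and HDAC1 had 12.8-fold and 13.5-fold. COL23A1 (chr5:178585441-178585745), a transmembrane collagen gene, had 15.4-fold for ENO1 and 16.0-fold in HDAC1 replicate 2, with no other peak. HHAT (chr1:210653882-210654162), the gene of Hedgehog acyltransferase, had 13.5-fold in ENO1 replicate 1 and no peak in any of the other 5 lists. AK3 (chr9:4713909-4714209), a mitochondrial adenylate kinase gene, had 11.9-fold for ENO1 and 12.6-fold in HDAC1 replicate 2.

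HDAC1 replicate 2 had a peak in 8 of these 10 regions, while H4K12la had one in 2. Over all 248 regions of ENO1 replicate 1 alone, HDAC1 replicate 2 had a peak in 38.3%. H4K12la replicates 1 and 2 had one in 18.5% and 24.6% of them. TCEA3 (chr1:23392341-23392730), a transcription elongation factor gene, had 11.8-fold for ENO1 with peaks of all 4 other lists, HDAC1 at 9.0-fold and 9.91-fold and H4K12la at 6.41-fold and 5.59-fold. FAM240C (chr2:241896100-241896808) had 11.6-fold for ENO1, 10.5-fold in HDAC1 replicate 2 and 5.21-fold in H4K12la replicate 1. DPP10, which encodes an auxiliary subunit of Kv4 potassium channels, had 10.1-fold for ENO1 and 9.23-fold in HDAC1 replicate 2. ABCC4, an efflux transporter gene, had 9.09-fold and 11.3-fold, and KCNMA1, the gene of the BK potassium channel, had 9.15-fold for ENO1 and 8.07-fold and 9.36-fold for HDAC1.

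SLC6A3 (chr5:1422389-1422800), the dopamine transporter gene, was the other region of this kind with ENO1 alone, at 10.7-fold in replicate 1. The ENO1 peaks of the 10 regions were short, from 281 to 412 bp. Across all 26 regions with a peak in ENO1 replicate 1 and HDAC1 replicate 2 and in no other list, the median ENO1 enrichment was 5.45-fold, and the summits lay within 50 bp of each other in 10. There were 16 regions with ENO1 replicate 1 and HDAC1 replicate 1 alone, with a median of 4.64-fold for ENO1. These 2 counts have no test, and of the HDAC1 lists that of replicate 2 is the shorter, with 4567 peaks against 5727.

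Of the regions with ENO1 replicate 2 alone, AKAP6 (chr14:32484192-32485180), an anchoring protein gene for protein kinase A, had the highest value, with 8.42-fold for ENO1 and with 9.86-fold and 9.28-fold for HDAC1. ADARB2 (chr10:1616705-1617326), a gene of the RNA editing enzyme family, had 7.31-fold for ENO1, 5.78-fold in HDAC1 replicate 2 and 5.23-fold in H4K12la replicate 2. ROCK1, a protein kinase gene, had 7.22-fold for ENO1, with 5.46-fold and 7.51-fold for HDAC1, in a region 7.38 kb outside the gene. DYNC2H1, the heavy chain gene of the ciliary dynein, had 7.15-fold for ENO1 and 7.87-fold and 5.94-fold for HDAC1. RAE1, an mRNA export factor gene, had 6.99-fold for ENO1, and MYRIP, which links RAB27A to myosin, 6.81-fold. HDAC1 had peaks in both lists at RAE1 (6.23-fold and 4.35-fold) and at MYRIP (9.29-fold and 6.77-fold), so 5 of these 6 regions held both HDAC1 lists. The 6 were picked by their ENO1 fold, and over all 60 regions of ENO1 replicate 2 alone only 17 (28.3%) held both.

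**Figure D4:**
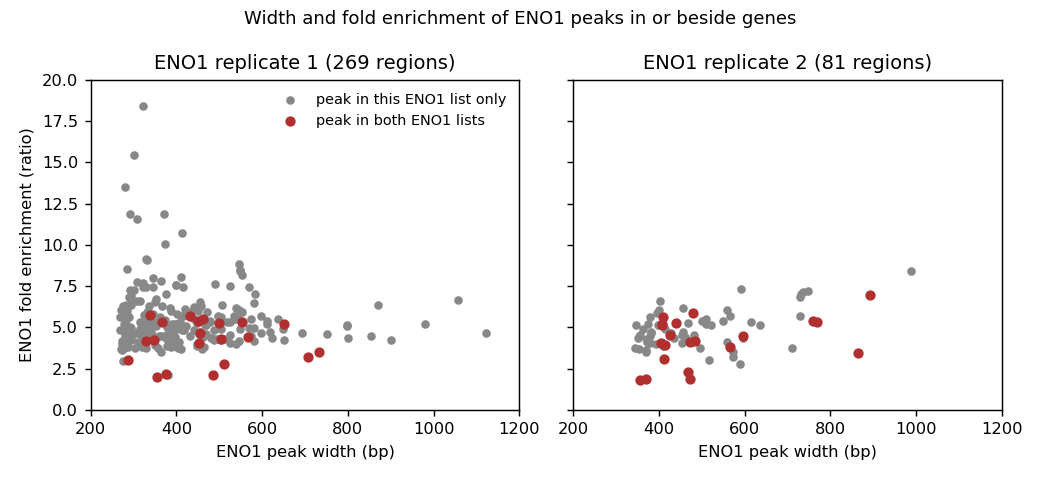
Width in bp and fold enrichment (ratio) of the ENO1 peaks in or beside genes, for replicate 1 (left, 269 regions) and replicate 2 (right, 81 regions); red points have a peak in both ENO1 lists. The 10 peaks at 9-fold or more are in replicate 1 alone and are 281 to 412 bp wide, and no red point reaches 7-fold.

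Under the same exclusions, ENO1 peaks in or beside genes had a lower median enrichment than ENO1 peaks far from genes, within each list. Their median enrichment was 5.0-fold in replicate 1 (n = 269 regions) and 4.54-fold in replicate 2 (n = 81), against 5.37-fold and 5.50-fold in ENO1 regions over 10 kb from genes. The whole lists had 5.76-fold and 5.78-fold, and the near-gene regions left out by the rule 6.63-fold and 5.86-fold. The exclusions remove regions shared by most lists, which had higher folds, so both of these differences follow the rule at least in part. Peaks in or beside genes had median widths of 379 and 456 bp, against 345 and 437 bp far from genes and 666 and 625 bp in the regions left out. A -log10 q of 5 or more was reached by 146 of 269 peaks in replicate 1 and 44 of 81 in replicate 2.

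Peaks of the other targets were absent from 150 of the 329 regions (45.6%, 40.3 to 51.0), against 560 of all 1984 regions with an ENO1 peak (28.2%). The 98 regions that the rule left out all have peaks of other targets, which raises the first share. HDAC1 had a peak in at least 1 list in 163 (49.5%, 44.2 to 54.9), and H4K12la in 96 (29.2%, 24.5 to 34.3). These shares depend on list length: with the 1189 strongest peaks of every list they were 18.9% for HDAC1 and 17.7% for H4K12la. In the full lists, HDAC1 without H4K12la accounted for 83 regions, H4K12la without HDAC1 for 16, and both for 80. Thus most regions with an H4K12la peak also had an HDAC1 peak. Both HDAC1 lists had a peak in 76 regions, both H4K12la lists in 47, and all 4 lists in 33.

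The rule limits these shares only where both ENO1 lists had a peak, so single-list regions give the plainer comparison. In the 248 regions of ENO1 replicate 1 alone, HDAC1 replicates 1 and 2 had a peak in 33.9% and 38.3%, and H4K12la replicates 1 and 2 in 18.5% (14.2 to 23.9) and 24.6% (19.7 to 30.3). In the 60 regions of ENO1 replicate 2 alone the values were 38.3% and 36.7% for HDAC1 and 12 of 60 (11.8 to 31.8%) and 23.3% (14.4 to 35.4) for H4K12la. Far from genes, the replicate 1 regions had HDAC1 in 36.2% and 43.1% and H4K12la in 13.2% (10.7 to 16.3) and 13.0% (10.5 to 16.1). The far replicate 2 regions had HDAC1 in 44.7% and 48.3% and H4K12la in 16.6% (13.1 to 20.8) and 16.0% (12.6 to 20.2). H4K12la was thus more often present near genes and HDAC1 less often in each of these 8 pairs, but several of the intervals overlap and no test was made. Near-gene regions without an ENO1 peak had H4K12la in 42.7% and 63.5% and HDAC1 in 39.3% and 26.3%. Far regions without an ENO1 peak were not set beside them, so the direction cannot be called particular to ENO1 regions.

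Where another target had a peak, its enrichment was higher than in near-gene regions without ENO1. HDAC1 had medians of 4.99-fold and 5.34-fold in the ENO1 regions, against 4.50-fold and 4.55-fold in near-gene regions without an ENO1 peak. H4K12la had 4.57-fold and 4.54-fold, against 3.90-fold and 3.94-fold. In ENO1 regions over 10 kb from genes the medians were higher still, 5.71-fold and 6.08-fold for HDAC1 and 5.63-fold and 5.28-fold for H4K12la. The 2 near-gene sets also differ in position. Centres lay within 1 kb of a start in 50.7% of regions without an ENO1 peak and 4.53% of those with one. What the difference in medians goes with was not tested. Across regions with a peak in both of the lists compared, ENO1 replicate 1 fold enrichment ranked with that of HDAC1 replicate 1 (Spearman's rank correlation 0.73, n = 95) and replicate 2 (0.66, n = 99), and with that of H4K12la replicate 1 (0.66, n = 49) and replicate 2 (0.62, n = 68). For ENO1 replicate 2 the values were 0.73 with HDAC1 replicate 1 (n = 34), 0.27 with HDAC1 replicate 2 (n = 26) and 0.72 with H4K12la replicate 2 (n = 21). The first of these was 0.57 (n = 29) without 5 regions of TTC34, none of which has an HDAC1 replicate 2 peak. The points of each comparison come from the same 2 libraries, and every region in which 1 of the lists has no peak is left out of it.

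Most of the regions lay inside genes and far from gene starts. Of the 329, 285 (86.6%, 82.5 to 89.9) touched a gene body and 44 lay only in the flanks, and gene bodies make up 85.0% of the bases in or within 10 kb of genes. The share was 85.2% for the 9030 near-gene regions without an ENO1 peak. The median distance of an ENO1 summit from the nearest annotated start was 38.7 kb. A summit lay within 1 kb of a start in 12 of 309 regions (3.88%, 2.24 to 6.66), where the 20 regions on chromosome 8, whose starts were not used here, are left out. By region centre the share was 4.53% (2.72 to 7.46), against 50.7% (49.7 to 51.8) in near-gene regions without an ENO1 peak. Exons and introns were not used here.

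A few regions lay at annotated gene ends of either kind. Within 1 kb of an end were 30 regions (9.12%, 6.46 to 12.7). The same share of other near-gene regions or of near-gene bases was not determined, so this value cannot be called high or low. KISS1 (chr1:204195161-204195748), the gene of kisspeptin, had the highest, 7.51-fold in ENO1 replicate 1, with 5.37-fold and 4.75-fold for HDAC1 and 5.85-fold and 4.79-fold for H4K12la. C2CD4C had 6.38-fold, with 4.41-fold and 4.43-fold for HDAC1 and 5.67-fold in H4K12la replicate 2. FCMR, the gene of an IgM Fc receptor, had 5.91-fold with 4.75-fold and 4.71-fold for HDAC1, and MCPH1, a gene of chromosome condensation, had 5.83-fold with peaks in all 4 other lists. ELL, an elongation factor gene, had 5.20-fold in ENO1 replicate 1 and 3.81-fold in HDAC1 replicate 1. Others in the group belong to families of similar genes and are uncertain, among them FAM86B1, USP17L28, POTEE, LOC124900996 and TAF11L7. All of these lay between 5.20-fold and 5.49-fold in their stronger ENO1 list. The promoter windows of POTEE and LOC124900996 had no near-identical copy, and promoters of chromosome 8, which holds FAM86B1, were not compared. Of all 329 regions, 28 overlapped an annotated lncRNA gene, 15 a pseudogene, and 15 lay in or beside a gene whose promoter has a near-identical copy. These are 8.51%, 4.56% and 4.56%, against 16.3%, 1.40% and 5.09% of near-gene regions without an ENO1 peak, in that order. For the last pair, genes without a promoter window here, among them all of chromosome 8, counted as having no copy. Both of its shares may therefore be too low.

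The genes concerned were long. A total of 337 protein-coding genes, 1.7% of the 19866 in the table, had such a region in them or within 10 kb; the rule itself makes this count. Over the 285 regions that touched a gene body, each with 1 gene it touched, the median gene length was 163 kb. A gene with several regions counts once for each. Over all protein-coding genes, each counted once, the median was 24.5 kb. Long genes offer more bases, and genes of 173 kb or more hold 50% of all gene-body bases. The share of genes with a region was 8.67% of those of 300 kb or more, 3.37% from 100 to 300 kb, 1.36% from 20 to 100 kb and 0.89% below 20 kb.

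Several genes held more than 1 region, 36 in all. After TTC34 came DIP2C with 5, 4 inside the gene and 1 at 8.96 kb from it. In ENO1 replicate 1 these had 6.10-fold, 5.83-fold, 5.53-fold and 3.94-fold, and the fifth had 4.40-fold in replicate 2. Peaks of the other targets were found only in the flanking region, where HDAC1 had 7.63-fold and 8.23-fold and H4K12la 6.46-fold and 5.57-fold. ADARB2, CDH4 and PTPRN2 had 4 regions each. ADARB2 had ENO1 replicate 1 peaks of 5.05-fold, 5.49-fold and 5.78-fold beside the replicate 2 peak given above, and the 2 of them at 5.49-fold and 5.78-fold had no other peak. PTPRN2 had, beside its region with both ENO1 lists, replicate 1 peaks of 3.84-fold and 4.45-fold and a replicate 2 peak of 3.97-fold with 7.49-fold and 6.99-fold for HDAC1.

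Both ENO1 lists were represented in 31 genes, and in 10 of these they had no region in common. Those 10 were DIP2C, ADARB2, CDH4, COL4A2, ADPRHL1, KATNAL2, ELOA2, ZNF236, FAM90A22 and FAM90A23. COL4A2, a basement membrane collagen gene, had 5.21-fold and 4.22-fold in ENO1 replicate 1 and 4.36-fold in replicate 2 at another place. ADPRHL1 had 3.86-fold in replicate 1 and 6.05-fold in replicate 2. ELOA2 lies within KATNAL2, so those names share their regions.

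Many of the regions lay near the ends of chromosomes. Within 5 Mb of the outermost annotated gene of a chromosome lay 140 of the 329 regions (42.6%, 37.3 to 48.0), while such ends hold 8.89% of the bases in or within 10 kb of genes. Near-gene regions without an ENO1 peak lay there in 12.5% of cases (11.9 to 13.3), and ENO1 regions over 10 kb from genes in 20.9% (18.5 to 23.5). Of the near-gene ENO1 regions left out by the rule, 49 of 98 did (40.3 to 59.7%). Both libraries showed the high share, with 114 of 269 regions of ENO1 replicate 1 (42.4%) and 36 of 81 of replicate 2 (44.4%). It was 47.6% where both ENO1 lists had a peak, 41.9% for replicate 1 alone and 43.3% for replicate 2 alone.

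The shares away from gene starts were similar. Regions with a summit over 1 kb from a start were terminal in 43.8% of cases (38.2 to 49.5), against 15.9% (14.8 to 17.0) of near-gene regions without an ENO1 peak whose centre was over 1 kb from a start. Among such regions without an ENO1 peak, those with a peak in HDAC1 replicate 1 had 19.8% and in replicate 2 22.1%, and those with a peak in H4K12la replicate 1 13.7%, and in replicate 2 306 of 2559 were terminal. Within the ENO1 regions, those with both HDAC1 and H4K12la were terminal in 55.0% (44.1 to 65.4) and those with neither in 31.3% (24.5 to 39.1). With windows of 2 Mb the share was 26.4%, against 3.78% of near-gene bases, and with 10 Mb it was 52.6%, against 17.3%.

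**Figure D5:**
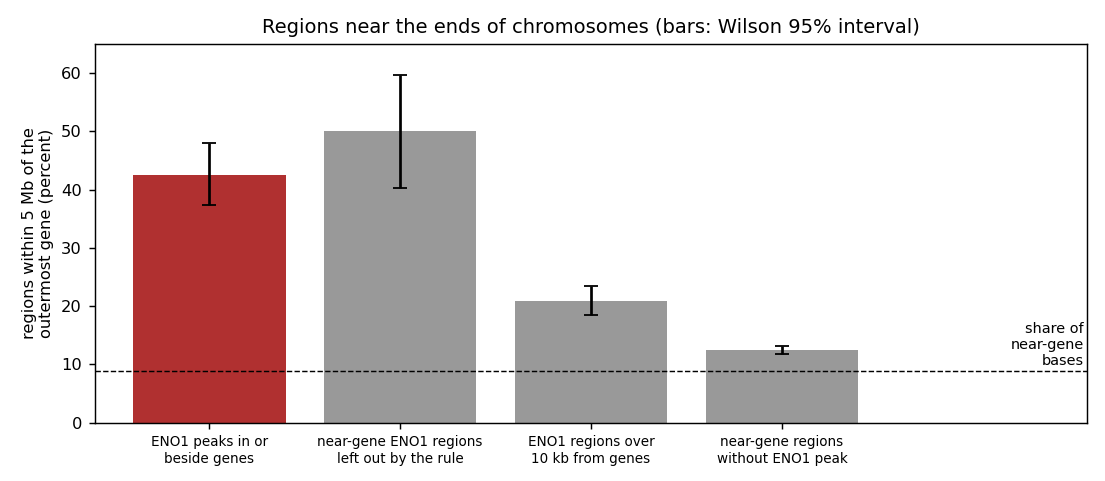
Share of regions (percent) within 5 Mb of the outermost annotated gene of their chromosome, with Wilson 95% intervals over regions; the dashed line is the share of bases in or within 10 kb of genes. ENO1 peaks in or beside genes lie at 42.6%, near-gene regions without an ENO1 peak at 12.5%, and the line at 8.89%.

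The terminal regions were spread over 35 chromosome ends. The starts of chromosomes 1 and 10 held 12 each, and the ends of chromosomes 2, 13 and 20 held 9 each. TTC34 is at the first of these, DIP2C, ADARB2 and PFKP at the start of chromosome 10, COL4A2, CARS2 and ADPRHL1 at the end of chromosome 13, and CDH4 and DNAJC5 at the end of chromosome 20. Per megabase in or within 10 kb of genes, chromosome 20 had the most regions (0.562), followed by 22 (0.426), 10 (0.423) and 2 (0.404), and chromosome 3 the fewest (0.0383). These are densities of peaks as called, with no test between chromosomes.

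Gene starts of the genes concerned were then looked up for the other targets. Of the 262 such genes with a start in the promoter table, 27 (10.3%, 7.18 to 14.6) had H4K12la peaks of both lists within 1 kb of a start, against 11.8% of all 15842 protein-coding genes there. HDAC1 peaks of both lists were present at 32 (12.2%, 8.79 to 16.7), against 8.89% of all. Among genes over 100 kb, H4K12la was at the start of 9.52% (5.53 to 15.9) of the genes with an ENO1 region and 16.8% (15.5 to 18.3) of all, and HDAC1 of 9.52% and 7.90%. The intervals include the share of all genes in 3 of these 4 comparisons. The exception is H4K12la at genes over 100 kb, where the share was lower with an ENO1 region, without a test.

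Gene lists were read against the 1.7% of all protein-coding genes that had a region. Of 36 genes of glycolysis and lactate, 1 had one: PFKP, the platelet phosphofructokinase, with 4.35-fold in ENO1 replicate 1, 4.17-fold and 4.62-fold for HDAC1, and 3.19-fold and 4.00-fold for H4K12la. Of 32 genes of HDAC1 complexes, 1 did: ING1, a subunit of SIN3 complexes, which lies 5.34 kb from the CARS2 region. Of 31 histone lactyl and acetyl enzymes and their partners, 2 did, among them KAT6B, described above. Of 45 liver genes, 1 did: HNF4A, a transcription factor of hepatocytes, with 3.80-fold in ENO1 replicate 1, 4.90-fold and 5.07-fold for HDAC1 and 3.44-fold and 3.34-fold for H4K12la. None of 18 Wnt targets did. Such peaks do not measure expression, so the identity of the cells was not checked by them.

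In PFKP and HNF4A all 4 other lists had a peak beside the single ENO1 list. A list of 56 genes, among them some of glutamate and GABA receptors, synapses and other very long genes, with a median length of 858 kb, had a region in 6. The list does not hold every receptor gene, and GRM4, described above, is not in it. PTPRT, a receptor phosphatase gene, had 7.55-fold in ENO1 replicate 1, 4.98-fold in HDAC1 replicate 2 and 5.61-fold in H4K12la replicate 2. CTNNA3, an α-catenin gene, had 2 regions of 4.78-fold and 5.11-fold in ENO1 replicate 1 alone. GRID1, a glutamate receptor family gene, had 4.62-fold. The share of this list, 10.7%, stands beside 8.67% for all genes of 300 kb or more.

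Gene families were read beside the 1.7% of all protein-coding genes and the 0.89% of those below 20 kb that had a region. Olfactory receptor genes had a region at 1 of 389 members (0.26%), OR2T6. Keratin-associated protein genes had one at 1 of 94 (1.06%), KRTAP21-2, with 7.68-fold in ENO1 replicate 1 alone at 4.51 kb from the gene. Of 25 USP17L genes, 4 had one, all through the same region near USP17L28, in a family of similar genes. Zinc finger genes, with a median length of 23.7 kb, had one at 8 of 517 (1.55%), near the share of all genes. The strongest was at ZNF407 with 6.87-fold in ENO1 replicate 1, 7.49-fold in HDAC1 replicate 2 and 7.92-fold and 6.20-fold for H4K12la.

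None of the 329 regions lay in or within 10 kb of the genes ENO1, HDAC1, LDHA or MYC. The 98 near-gene ENO1 regions left out by the rule were not looked up at these genes, so an ENO1 peak there is not excluded. The nearest of the 329 was 1205 kb from the ENO1 gene, 7947 kb from HDAC1, 15922 kb from LDHA, which makes lactate, and 10949 kb from MYC.

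Among regions with no peak of another target, HHAT and SLC6A3 were followed by RPEL1 (7.74-fold), KRTAP21-2 (7.68-fold), GAGE10 (7.55-fold) and ZMAT4, a zinc finger gene (7.47-fold), all in ENO1 replicate 1 alone. GAGE10 belongs to a tandem family of cancer-testis antigens whose copies may share reads. At the 10 kb limit, the last regions inside were beside TGIF2 (8.63 kb, 3.89-fold), DIP2C (8.96 kb, 6.10-fold) and ZCCHC14 (9.03 kb, 7.96-fold), all in ENO1 replicate 1. The nearest ones outside were beside AKAP1 (10.2 kb, 6.45-fold), C20orf203 (10.3 kb, 11.9-fold) and OR2Z1 (10.4 kb, 3.54-fold and 4.09-fold in both ENO1 lists).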

How the data were processed

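Peak lists of CUT&Tag in HepG2 cells were used, 6 libraries for 3 targets with 2 replicates each, with groups taken from the sample titles. FastQC, Bowtie2, MACS2, deepTools and the build hg38 are named per the submitters' processing notes, while versions, settings and any control library were not given in the sources used here. Peaks were called by the authors per library. Each deposited list gives, per peak, a fold enrichment, which is a ratio of summit height to the peak caller's background, -log10 values of p and q, and the offset of the summit from the peak start. The lowest -log10 q lies near 2 in each list. Read counts and depth are not known, so no precision of a single peak can be given.

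Peaks on 24 chromosomes were merged by chaining overlaps of at least 1 bp (Python 3.11.15, pandas 2.3.3, numpy 2.4.6). Protein-coding genes (19866) came from the RefSeq table of GRCh38.p14, without 718 entries whose positions belong to other sequences. Starts, strands and promoter sequences came from the RefSeq promoter table, with chromosome 8 starts not used here. Promoters were compared with blastn 2.17.0, and those of at least 90% identity over 90% of their length were called near-identical. Genes at the outermost annotated position of each chromosome set its ends. Shares have Wilson 95% intervals (SciPy 1.17.1).

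The regions and the gene lists were chosen with earlier results of these data known, so no test was made on them. The script was tested on simulated peak lists. Genes are named by rule: up to 20 regions with both ENO1 lists by the lower fold, the 6 highest of each ENO1 list alone, up to 10 at gene ends, up to 6 with ENO1 alone, up to 4 per list, the 3 nearest on each side of the 10 kb limit, the genes with most regions, and ENO1, HDAC1, LDHA and MYC. Others named were chosen after their values were seen: the fourth TTC34 region, the regions of 9-fold or more, the genes with both ENO1 lists apart and those at promoter windows. Settings tried were other flanks, a stricter -log10 q, equal list lengths, joining rules, gene sets and leaving out each library. A few regions and genes that this rule selects are not reported here.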

Additional observations from a re-analysis of the deposited data

How the results depend on the processing

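The rule was applied again under other settings, and 126 of 158 values stayed within 1.5 times the count, within the share's exact 95% interval, or within 0.325, the SD of the medians of fold over the lists. The share of regions near chromosome ends stayed between 39.2% and 45.0% over all settings but other windows and left-out libraries; it was 26.4% with windows of 2 Mb and 52.6% with 10 Mb, and 40.0% to 45.3% without each library. A -log10 q of 5 or more left 191 regions and 204 genes, 11 regions with both ENO1 lists, 70 with no other target, 60.2% with HDAC1, and median ENO1 folds of 5.72 and 5.29. With equal list lengths of 1189, 48 regions had both ENO1 lists, 18.9% had HDAC1, 17.7% H4K12la, and the replicate 1 median was 5.72-fold; shorter lists hold fewer peaks of the other targets by construction. A flank of 50 kb gave 36 regions with both ENO1 lists, 716 genes and 63.2% in gene bodies, which were 91.1% with 5 kb and 100% by construction with gene bodies alone. Leaving out each library in turn gave 64 to 329 regions, 10 to 21 with both ENO1 lists, 66 to 337 genes, 33 to 181 regions without another target, 86.2% to 92.2% in gene bodies, 33.6% to 49.2% with HDAC1 and 18.2% to 29.1% with H4K12la. The lowest counts of regions and genes were without ENO1 replicate 1. Without HDAC1 replicate 2 the regions with both ENO1 lists were 10, and without ENO1 replicate 2 there were 210 regions, since 60 regions had that list alone and 59 others then fall under the exclusion. Where no construction is named, the cause was not tested. An alternative gene set by protein identity was not run, and one by promoter identity, one without the TTC34 regions and the other windows were chosen after seeing the data. No paired analysis was possible because no value comes from a test. Peak lists without depth limit all counts: a region missing from a list may lie just under its threshold.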
